A study of Mus musculus with 9 samples.

Results

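Imprinted genes are described here, chosen by symbol from a list of 36 genes known to be expressed from 1 parental allele in the mouse. Of these, 28 matched the 16070 genes of the deposited table, and 20 passed a filter of at least 1 FPKM (fragments scaled to transcript length and to the fragments mapped) in at least 3 libraries, as did 11850 genes in all. Among the 28 were 9 that are expressed from the maternal allele, 18 from the paternal allele, and Gnas, a complex locus with transcripts of either kind. H19, Kcnq1ot1, Zim1, Ndn, Magel2, Nnat, Dlk1 and Nap1l5 were not matched and are not analysed here.

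The libraries came from C57BL/6 mouse embryos cultured in vitro and taken 4.5 days after microinjection, close to implantation, when an outer trophectoderm surrounds the epiblast and the primitive endoderm. Editing was by CRISPR-Cas9, per the series' title, and there were 3 groups of 3 libraries: wild type (WT), libraries titled H3R17H, a title that stands for histidine in place of arginine at residue 17 of histone H3, and libraries titled Carm1-/-, a title that stands for loss of the arginine methyltransferase that modifies this residue. As given below, Carm1 RNA was low in the libraries titled H3R17H and not in those titled Carm1-/-, and titles and columns disagree. The labels do not say how many embryos a library held, whether the controls were injected, or whether libraries came from separate embryos, and 1 protocol speaks of a single cell, so the p-values given here speak for these libraries and their spread alone. The embryos are of 1 inbred strain and the table holds 1 value per gene, so the parental alleles were not told apart. All that follows concerns total RNA of each gene.

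Genomic imprinting marks an allele in the egg or the sperm, so that after fertilisation 1 parental copy is favoured, for some genes in certain tissues only. Most imprints are DNA methylation at CpG-rich control regions, kept through the cleavage stages by the zinc finger protein ZFP57 and its partner TRIM28 while the rest of the genome loses methylation. A smaller set, here Slc38a4, Sfmbt2, Gab1, Jade1 and Smoc1, is silenced on the maternal allele by the histone mark H3K27me3, laid down in the oocyte by Polycomb proteins, and is best known from extraembryonic tissue. Maternally expressed members are often restrainers of growth and paternally expressed ones promoters of it.

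Promoter windows were available for 23 of the 28 genes from RefSeq on GRCm38.p6, each of 300 bases, from 250 before to 50 after an annotated start. The 4 shown belong to the members on which the comparisons below turn most, with every CpG in capitals, since CpG is the site where DNA is methylated. Whether an imprint lies in any of these windows was not examined. They are given 5′ to 3′ on the gene's strand.
Slc38a4: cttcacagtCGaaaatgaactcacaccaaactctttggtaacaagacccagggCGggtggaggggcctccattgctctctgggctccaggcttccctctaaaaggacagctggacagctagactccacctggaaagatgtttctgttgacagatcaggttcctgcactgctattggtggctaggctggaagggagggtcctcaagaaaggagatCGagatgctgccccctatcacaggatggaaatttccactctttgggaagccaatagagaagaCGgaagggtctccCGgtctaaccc
Phlda2: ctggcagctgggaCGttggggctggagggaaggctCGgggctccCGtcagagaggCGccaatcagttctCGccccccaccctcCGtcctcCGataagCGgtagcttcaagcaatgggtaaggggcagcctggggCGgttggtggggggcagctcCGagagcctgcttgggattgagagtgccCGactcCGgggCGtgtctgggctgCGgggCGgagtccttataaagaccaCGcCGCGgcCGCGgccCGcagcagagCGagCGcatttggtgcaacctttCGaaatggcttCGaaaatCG
Commd1: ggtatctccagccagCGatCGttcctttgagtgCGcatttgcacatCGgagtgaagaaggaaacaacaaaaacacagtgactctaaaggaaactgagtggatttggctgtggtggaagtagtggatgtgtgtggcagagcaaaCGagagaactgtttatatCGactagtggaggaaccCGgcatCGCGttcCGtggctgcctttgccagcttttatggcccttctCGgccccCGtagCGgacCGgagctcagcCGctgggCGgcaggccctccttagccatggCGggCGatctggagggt
Mcts2: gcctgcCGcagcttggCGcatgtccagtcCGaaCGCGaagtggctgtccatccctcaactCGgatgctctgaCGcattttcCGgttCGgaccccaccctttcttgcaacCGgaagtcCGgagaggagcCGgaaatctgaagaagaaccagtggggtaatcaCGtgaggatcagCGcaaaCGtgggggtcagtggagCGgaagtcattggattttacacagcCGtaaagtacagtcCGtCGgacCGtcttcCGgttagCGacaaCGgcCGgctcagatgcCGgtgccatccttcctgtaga
The Slc38a4 window (chr15:97055907-97056206, minus strand) held 5 CpGs. The Phlda2 window (chr7:143502475-143502774, minus strand) held 26, the Commd1 window (chr11:22982235-22982534, minus strand) 18 and the Mcts2 window (chr2:152686898-152687197, plus strand) 25. The Phlda2 window lies inside the gene as annotated by GENCODE and does not hold its GENCODE start at 143503150. The windows of Slc38a4, Commd1 and Mcts2 hold theirs. The median was 7 CpGs over all 32851 windows and 16 over the 45 windows of the members, so the Slc38a4 window was CpG-poor for a member and the other three were CpG-rich. The ZFP57 recognition letters TGCCGC, searched on both strands, occurred in 10 of the 45 member windows, or 22.2%, against 11.6% of all windows. They occurred once each in the Commd1 and Mcts2 windows and not in those of Slc38a4 and Phlda2. Such a match describes the letters of the window only. The letters include a CpG, and the shares were not matched for CpG content. Windows of the same gene can overlap, as for Mest, so some matches were counted more than once.

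Several features of the libraries bear on every comparison. Carm1, the gene in the third group's title, was at 6.65 to 8.86 FPKM in WT, at 0.02 to 1.88 in the libraries titled H3R17H and at 6.44 to 12.7 in those titled Carm1-/-. The columns of the table name the libraries titled H3R17H Carm and those titled Carm1-/- Hist, so titles and columns disagree, and Carm1 RNA was low under the title H3R17H and not under Carm1-/-. Groups are called by their titles throughout, and which edit each carried is not settled here. All 3 WT libraries had Y-linked transcripts (a summed 30.7 to 35.7 FPKM over 4 genes), against replicate 1 alone in each edited group. A fit term for Y-linked transcripts, used below, thus sets replicate 1 of the edited groups against their other replicates, pooled over both groups. Values with that term rest on these replicate 1 libraries, and the presence of a Y cannot be told apart from their other traits. The 10 trophectoderm markers summed to 5264 to 7842 FPKM in WT, to 1576 to 4557 in the libraries titled H3R17H and to 2028 to 8557 in those titled Carm1-/-. Epiblast markers summed to 256 to 346, 316 to 334 and 299 to 368 FPKM, and primitive endoderm markers to 170 to 223, 144 to 177 and 86.3 to 180 FPKM, in the same order. Of 6 oocyte markers 3 were in the table, with sums of at most 1.32 FPKM in WT and in the libraries titled H3R17H and 2.27, 22.1 and 7.03 FPKM in those titled Carm1-/-. None of 10 markers of cumulus and other somatic cells was matched. Where a library holds many cells, fewer cells of a type and less RNA per cell cannot be told apart, and the part of these values in the results was not tested.

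In WT embryos the imprinted genes covered a wide range of levels, all in FPKM and so per transcript length. Their median WT mean was 2.04 FPKM, against 2.65 FPKM over all genes of the table. There were 7 members at 10 FPKM or more, 12 from 1 to under 10 and 9 below 1. Snrpn, which encodes a spliceosomal Sm protein, stood far above the rest at 148.8 ± 0.583 FPKM (SD, n = 3). Next came Slc38a4, an amino acid transporter of the trophoblast, at 42.8 ± 4.69, Commd1, a regulator of copper balance and NF-kB, at 40.1 ± 4.89, and Mcts2, a retrogene copy of the translation factor gene Mcts1, at 36.3 ± 3.74. The WT ranges of these 3 overlapped, though every WT library had more Slc38a4 than Mcts2. Mest, Igf2r and Jade1 followed at 12.3 ± 0.615, 11.5 ± 2.19 and 11.0 ± 0.564 FPKM. Igf2r overlapped with both, while every WT library had slightly more Mest than Jade1. At the foot lay the maternally expressed noncoding RNA Rian, at 0.073 FPKM, and Ascl2, a trophoblast transcription factor, at 0.204 FPKM.

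**Figure D1:**
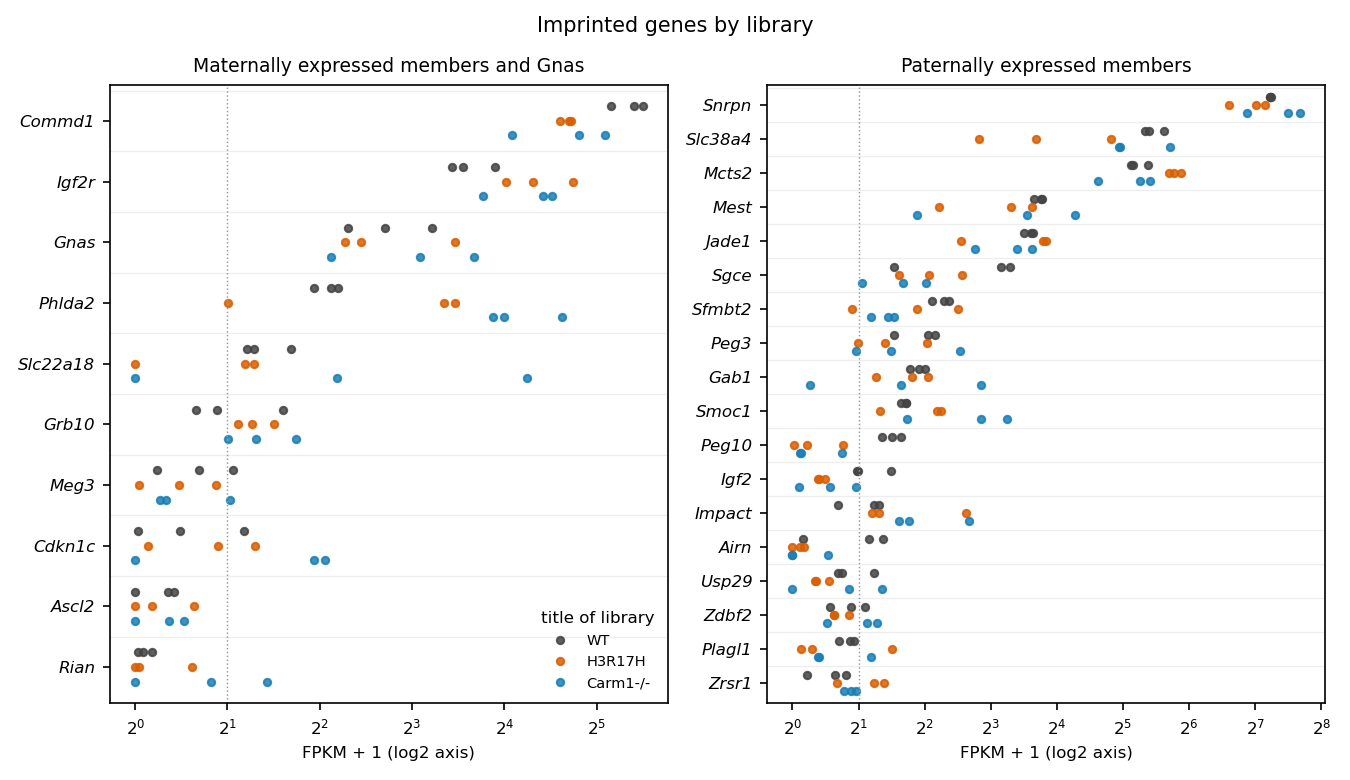
FPKM + 1 of the 28 imprinted genes on a log2 axis, 1 point per library, coloured by title, with 3 points per group, genes ordered by WT mean and a dotted line at 1 FPKM. Snrpn is highest, and the libraries titled H3R17H lie below WT for Slc38a4 and Commd1 and above WT for Mcts2 and Igf2r.

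The libraries titled H3R17H, in which Carm1 RNA was low, were set against WT first. Slc38a4, Commd1 and Peg10 had lower values in all 3 of these libraries than in any WT library, and Igf2r and Mcts2 higher ones. None of the 20 tested members passed the adjusted threshold of 0.05 (limma, lowest adjusted p = 0.224), and neither did any gene of the table, 0% of 11850. At an unadjusted p under 0.05, 2 members were higher and 3 lower, 5 of 20, where 6.41% of all tested genes were higher and 7.75% lower at that p, or 14.2%. Non-overlapping libraries were found for 7 members, 2 higher and 5 lower, against 28.9% of all genes (13.3% higher, 15.6% lower). Both counts include Peg10, which passed the filter through WT alone, so that its lower values were fixed by the filter. The members stood not far above the background in either count.

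Slc38a4 (chromosome 15, 96994820 to 97055956, GRCm38) was at 39.2, 48.1 and 41.1 FPKM in WT replicates 1 to 3, against 11.9, 6.08 and 27.2 FPKM in the libraries titled H3R17H. All 3 of the latter lay below WT, with replicate 2 lowest and replicate 3 nearest to WT. The log2 difference was -1.67 (SE 0.44; limma, adjusted p = 0.224). Trophectoderm marker sums in the same 3 libraries were 1576, 1649 and 4557 FPKM, made up mostly of the keratins Krt8 and Krt18. The library with the highest Slc38a4 had the highest sum, but the order of the other two was the reverse. Of the 9 trophectoderm markers tested, 6 had lower and 3 higher values than WT, with a median log2 difference of -0.82. Libraries did not overlap for 4 of them, all lower, where 15.6% of all genes were non-overlapping and lower. Gata2, among these 4, reached 1 FPKM in WT alone, so its lower and non-overlapping values were fixed in advance by the filter. The trophectoderm factor Tfap2c, among those with higher values, was at 37.5 to 55.0 FPKM here and at 24.1 to 46.3 in WT. What these markers mean for Slc38a4 was not tested. Without replicate 2 of this title the difference was -1.19, and over the 18 alternatives its adjusted p ranged from 0.056 to 0.688.

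Of the other members silenced by H3K27me3, Sfmbt2, a Polycomb-related protein of the trophoblast, was at 2.7, 0.86 and 4.7 FPKM in the libraries titled H3R17H and at 3.31 to 4.14 in WT. Jade1, a subunit of a histone acetyltransferase complex, was at 13.3, 4.86 and 12.8 FPKM against 10.4 to 11.5 in WT. Gab1, an adaptor of receptor tyrosine kinases, was at 3.16, 1.4 and 2.51 FPKM against 2.44 to 3.02. Smoc1, a secreted calcium-binding protein, was at 3.73, 1.5 and 3.57 FPKM against 2.11 to 2.29. In these 4 genes replicate 2 lay lowest and below WT. Replicates 1 and 3 lay above or within the WT range except replicate 1 of Sfmbt2, which lay below it. For Slc38a4 alone, all 3 replicates lay on the same side of WT.

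Commd1 (chromosome 11, 22896136 to 22982382) was at 41.5, 44.2 and 34.7 FPKM in WT, against 23.4, 25.4 and 24.9 in the libraries titled H3R17H. These 3 libraries lay close together and below all of WT, a log2 difference of -0.68 (SE 0.28; limma, adjusted p = 0.326). Commd1 is maternally expressed mainly in brain, and the paternally expressed Zrsr1, a splicing factor gene, lies within it on the other strand. Zrsr1 was at 0.56, 0.17 and 0.75 FPKM in WT, against 1.36, 0.6 and 1.62 in the libraries titled H3R17H, and it did not pass the filter on low values. The groups overlapped for Zrsr1. The sources used here do not say whether counting used strand, so reads of the 2 genes may have been mixed.

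Mcts2 (chromosome 2, 152687035 to 152687946) lies inside H13, a gene of an intramembrane protease that is itself imprinted. It was at 34.5, 33.8 and 40.6 FPKM in WT, against 50.7, 57.7 and 53.7 in the libraries titled H3R17H. Here too the groups did not overlap, with a log2 difference of 0.56 (SE 0.25; limma, adjusted p = 0.347). H13 was at 14.3, 12.8 and 6.47 FPKM in WT, against 17.6, 17.9 and 17.5 in the libraries titled H3R17H, a log2 difference of 0.68 (SE 0.33; adjusted p = 0.371) that was 0.36 without WT replicate 3, the lowest library. Both genes lie on the plus strand, and Mcts2 resembles Mcts1, so how reads were divided among the 3 cannot be checked. With a term for Y-linked transcripts the difference was 0.29 for Mcts2 and its adjusted p 0.86, in a range of 0.107 to 0.86 over the alternatives.

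Igf2r, the receptor that clears the growth factor IGF2 (chromosome 17, 12682406 to 12769664), was at 10.7, 14.0 and 9.81 FPKM in WT, against 18.9, 25.8 and 15.2 in the libraries titled H3R17H. Every one of these lay above WT, a log2 difference of 0.73 (SE 0.31; limma, adjusted p = 0.334) that was 0.47 with a term for Y-linked transcripts. Airn, the paternal noncoding RNA that silences Igf2r in cis and overlaps it on the other strand, was at 0.12, 1.58 and 1.23 FPKM in WT. It was listed at 0.13, 0 and 0.08 FPKM in the libraries titled H3R17H, and WT replicate 1 lay among them. Igf2, the ligand, was at 0.97 to 1.81 FPKM in WT and at 0.3 to 0.41 in the libraries titled H3R17H, with no overlap, but neither Airn nor Igf2 passed the filter and neither was tested.

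Peg10, a retrotransposon-derived gene needed for the placenta, is singled out after its values were seen because it was under the 5 FPKM set for a full description. It was at 1.56, 2.13 and 1.84 FPKM in WT, at 0.16, 0.02 and 0.71 in the libraries titled H3R17H, and at 0.09, 0.67 and 0.09 in those titled Carm1-/-. All 6 edited libraries lay below all 3 WT libraries. However, Peg10 reached 1 FPKM in the WT libraries alone and so passed the filter only through WT. For a gene that passes in this way, lower and non-overlapping edited libraries are fixed in advance. The log2 difference was -1.17 (SE 0.34) in both comparisons (limma, adjusted p = 0.234 for H3R17H vs WT and 0.266 for Carm1-/- vs WT). The 2 comparisons share the WT libraries. At these low levels log2(FPKM + 1) understates the change, and the difference ranged from -0.37 with a pseudocount of 5 FPKM to -2.73 with 0.1 FPKM for H3R17H vs WT, and from -0.37 to -2.67 for Carm1-/- vs WT. Sgce, epsilon-sarcoglycan, starts beside Peg10 on the other strand and is paternally expressed too. Sgce had 1.89, 8.76 and 7.87 FPKM across WT, where replicate 1 lay below all 3 libraries titled H3R17H, which were at 3.18, 2.06 and 4.89 FPKM. Those titled Carm1-/- were at 3.06, 2.19 and 1.07 FPKM and overlapped with WT as well.

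Mest, an enzyme of the alpha/beta hydrolase fold long known as a paternally expressed gene whose control region is methylated on the maternal allele, was at 11.6, 12.5 and 12.7 FPKM in WT, against 11.4, 3.66 and 8.91 in the libraries titled H3R17H. The groups did not overlap, but replicate 1 lay just below WT, and the log2 difference of -0.68 (SE 0.56; limma, adjusted p = 0.606) was -0.26 without replicate 2 and turned to 0.13 with a term for Y-linked transcripts. Snrpn, at 149.5, 148.5 and 148.5 FPKM in WT, was at 141.5, 128.8 and 96.4 FPKM in the libraries titled H3R17H, a log2 difference of -0.30 (SE 0.24; adjusted p = 0.595). The WT libraries were almost equal for Snrpn, and the others all lay below them, but without replicate 3 titled H3R17H the difference was -0.14. Peg3, a zinc finger protein, was at 1.64, 0.98 and 3.1 FPKM against 1.9 to 3.47 in WT, and its neighbour Usp29, a deubiquitinase that did not pass the filter, was at 0.27 to 0.47 FPKM against 0.62 to 1.36. In the libraries titled Carm1-/- Peg3 ranged from 0.95 to 4.81 FPKM and Usp29 from 0.0003 to 1.55, each on both sides of WT and highest in replicate 1.

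**Figure D2:**
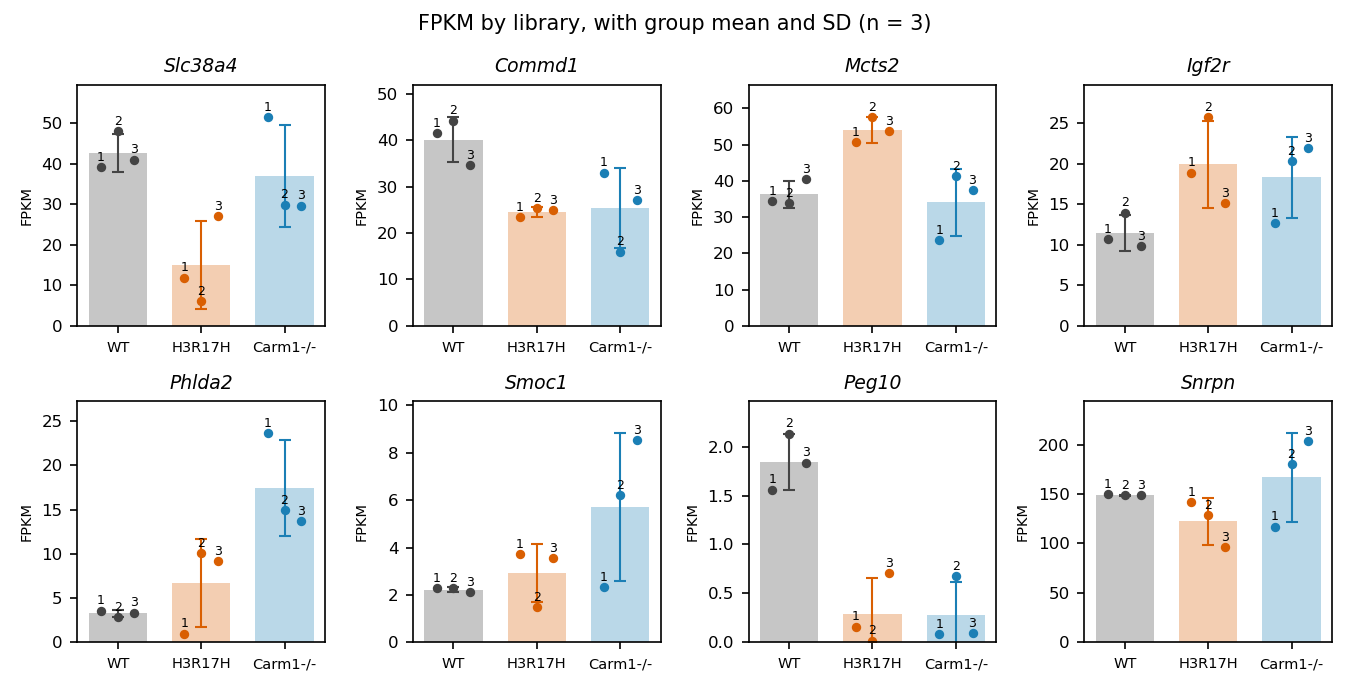
FPKM in each library (points numbered by replicate) for 8 imprinted genes, bars giving the mean of 3 libraries and whiskers the SD, on linear axes from 0. Slc38a4, Commd1 and Peg10 lie below WT in all 3 libraries titled H3R17H, and Phlda2 lies at 13.7 FPKM or more in those titled Carm1-/- against at most 3.6 in WT.

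The libraries titled Carm1-/-, in which Carm1 RNA was not below the WT range except for 6.44 FPKM in replicate 1, were set against WT next. Phlda2, Smoc1 and Impact had higher values in all 3 of these libraries than in any WT library, and Commd1, Sfmbt2 and Peg10 lower ones. Again none of the 20 tested members passed the adjusted threshold (limma, lowest adjusted p = 0.266), with 0% of all genes past it. At an unadjusted p under 0.05, 1 member was higher and 2 were lower, where 5.25% of all genes were higher and 6.19% lower, or 11.4%. Non-overlapping libraries were found for 6 members, 3 higher and 3 lower, against 16.6% of all genes (6.91% higher, 9.71% lower). Replicate 1 of this title was often nearest to WT. Without it 7 members were at an unadjusted p under 0.05, where 23.8% of all genes were, and 13 did not overlap with WT, against 42.4% of all genes. Each of these counts at unadjusted p or of non-overlap includes Peg10, which passed the filter through WT alone.

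Phlda2, a pleckstrin homology protein that restrains placental growth (chromosome 7, 143501545 to 143503150), was at 3.6, 2.84 and 3.37 FPKM in WT, against 23.6, 14.97 and 13.7 in the libraries titled Carm1-/-. All of these lay well above WT, and replicate 1 was the highest. The log2 difference was 2.07 (SE 0.58; limma, adjusted p = 0.266), and its adjusted p over the alternatives ranged from 0.121 to 0.94. In the libraries titled H3R17H, Phlda2 was at 1, 10.04 and 9.16 FPKM, so replicate 1 lay below WT and the other two above it. Between the 2 edited groups the libraries did not overlap, with a log2 difference of 1.56 (SE 0.58; adjusted p = 0.547) for Carm1-/- vs H3R17H. Without replicate 1 titled H3R17H it was 0.76, and with a pseudocount of 5 FPKM 1.02. The difference from WT was 1.5 with a term for Y-linked transcripts.

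Phlda2 belongs to a cluster on chromosome 7 whose maternally expressed genes are silenced on the paternal allele through the noncoding RNA Kcnq1ot1. Its neighbour Slc22a18, a transporter, was at 1.44, 2.22 and 1.32 FPKM in WT, against 18.04, 3.56 and 0 in the libraries titled Carm1-/-. Replicate 1 alone stood far above WT, and the value of 0 in replicate 3 was shared with replicate 3 titled H3R17H. Cdkn1c, an inhibitor of the cell cycle in the same cluster, was at 1.26, 0.4 and 0.02 FPKM in WT, against 0, 2.83 and 3.16 in those libraries, so replicate 1 went apart from the others here too. Ascl2 stayed at or below 0.554 FPKM in all 9 libraries. The 4 genes of the cluster thus showed no common order of the libraries titled Carm1-/-.

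Commd1 was at 33.0, 16.01 and 27.1 FPKM in the libraries titled Carm1-/-, below all of WT, with a log2 difference of -0.69 (SE 0.28; limma, adjusted p = 0.397). Replicate 1 was nearest to WT and replicate 2 farthest, and without replicate 2 the difference was -0.41. Commd1 therefore had lower values than WT in all 6 edited libraries. Both comparisons share the WT libraries, and the share of all genes on the same side of WT in both was not computed. Igf2r was at 12.7, 20.3 and 21.9 FPKM, and here replicate 1 lay within the WT range, so the groups overlapped. Airn was listed at 0.46, 0 and 0 FPKM in these libraries.

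Among the members silenced by H3K27me3, 2 did not overlap with WT, in opposite directions. Sfmbt2 was at 1.89, 1.28 and 1.71 FPKM, below the WT range of 3.31 to 4.14, a log2 difference of -0.87 (SE 0.41; limma, adjusted p = 0.448). It was named after its values were seen, as was Impact below. Smoc1 was at 2.34, 6.23 and 8.52 FPKM, against 2.29, 2.29 and 2.11 in WT, a log2 difference of 0.92 (SE 0.43; adjusted p = 0.444). Replicate 1 lay just above WT for Smoc1, and without replicate 3 the difference was 0.61. Slc38a4, Gab1 and Jade1 overlapped with WT, at 29.7 to 51.6, 0.2 to 6.22 and 5.8 to 11.3 FPKM. Replicate 1 was above WT for Slc38a4 and Gab1, while replicates 2 and 3 were below it.

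Impact, an inhibitor of the stress kinase GCN2, was at 1.47, 1.34 and 0.62 FPKM in WT, against 2.41, 5.35 and 2.07 in the libraries titled Carm1-/-, a log2 difference of 0.94 (SE 0.46; limma, adjusted p = 0.46). No library of the 2 groups overlapped, but the Impact difference was 0.62 without replicate 2 titled Carm1-/- and 0.56 with a term for Y-linked transcripts. With a pseudocount of 5 FPKM the differences were 0.41 for Impact, 0.52 for Smoc1 and -0.41 for Sfmbt2. Snrpn was at 117, 179.9 and 203.2 FPKM and Mest at 18.4, 2.7 and 10.7 FPKM, on both sides of WT. Mcts2, at 23.7, 41.4 and 37.4 FPKM, also overlapped with WT, unlike in the libraries titled H3R17H.

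**Figure D3:**
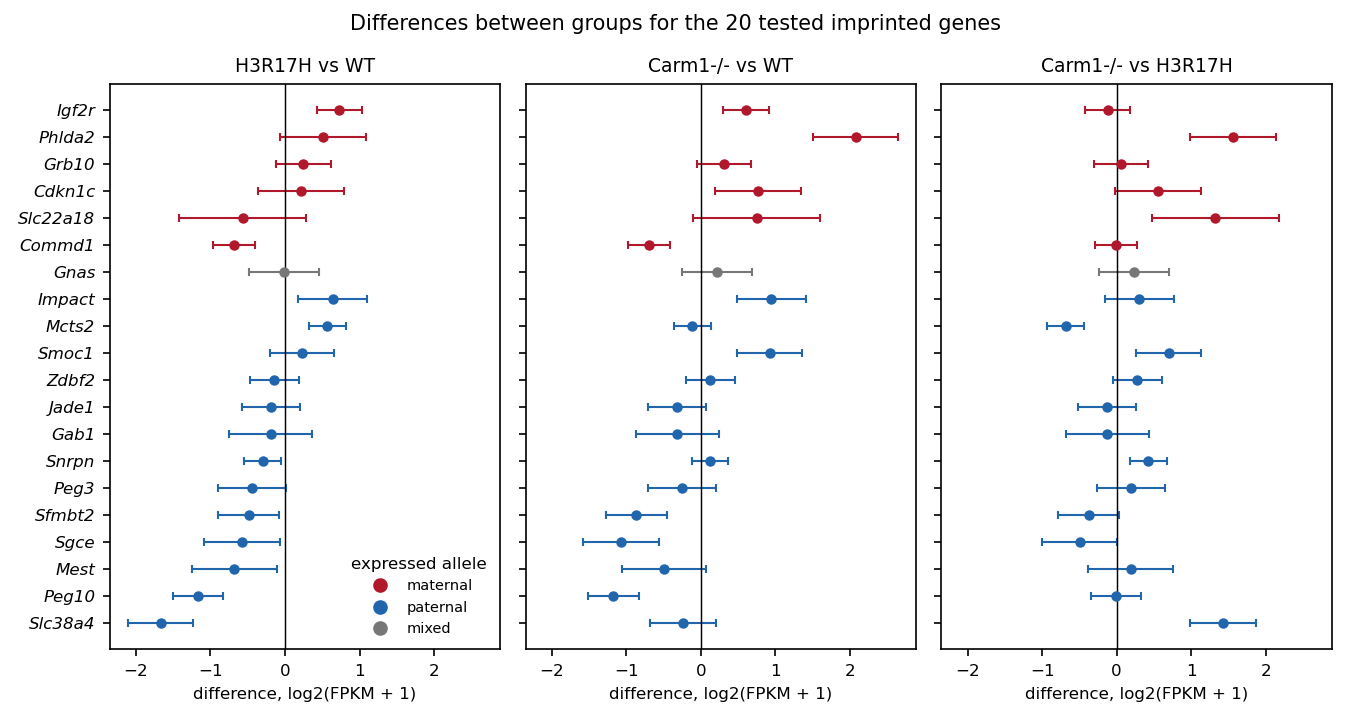
Difference of log2(FPKM + 1) for the 20 tested imprinted genes (points) with its SE from limma (error bars) in 3 comparisons, coloured by the expressed allele. Slc38a4 is lowest at -1.67 in H3R17H vs WT and Phlda2 highest at 2.07 in Carm1-/- vs WT, and none passed the adjusted threshold.

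The 2 edited groups were also compared directly, which tests whether an effect differed between them. None of the 20 tested members passed (limma, lowest adjusted p = 0.454), and 0% of all genes did. At an unadjusted p under 0.05 there were 3 members, Slc38a4 and Phlda2 higher and Mcts2 lower in the libraries titled Carm1-/-, where 8.21% of all genes were below that p (4.09% higher, 4.12% lower). The same 3 had non-overlapping libraries, against 11.2% of all genes (5.13% higher, 6.07% lower). Of the 20, 12 had higher and 8 lower values, against 49% and 51% of all genes. For Slc38a4 the lowest library titled Carm1-/- was at 29.7 FPKM and the highest titled H3R17H at 27.2 FPKM, a narrow gap, with a log2 difference of 1.43 (SE 0.44; adjusted p = 0.454). For Mcts2 the difference was -0.68 (SE 0.25; adjusted p = 0.543). Without replicate 1 titled Carm1-/- it was -0.45 for Mcts2, and 1.17 for Slc38a4, which was 0.95 without replicate 2 titled H3R17H. Over all alternatives the adjusted p of Slc38a4 ranged from 0.262 to 0.868 and that of Mcts2 from 0.281 to 0.913.

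Read by the parental allele on record, which was not measured in these embryos, the tested members divided as follows. In H3R17H vs WT, 4 of 6 maternally expressed members had higher and 2 lower values (median log2 difference 0.23), and 3 of 13 paternally expressed members had higher and 10 lower ones (median -0.30). Over all genes 47.7% were higher and 52.3% lower (median -0.03). In Carm1-/- vs WT, 5 of 6 maternally expressed members had higher and 1 lower values (median 0.68), and 4 of 13 paternally expressed ones higher and 9 lower (median -0.25). Over all genes 46.3% were higher and 53.7% lower (median -0.04). Both comparisons use the same WT libraries, and none of these members passed the test. Peg10, among the paternally expressed members with lower values in both, passed the filter through WT alone.

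By library, the median of the maternally expressed members relative to WT was -0.27, 0.40 and 0.36 in replicates 1 to 3 titled H3R17H and 0.05, 0.79 and 0.79 in those titled Carm1-/-. Replicate 1 of each edited group, the library with Y-linked transcripts, was the lowest of its group. For the paternally expressed members the medians were -0.10, -0.93 and 0.00 titled H3R17H and 0.05, -0.49 and -0.18 titled Carm1-/-, against -0.07 to 0.06 in WT. Without replicate 2 titled H3R17H the median of H3R17H vs WT was -0.11 for the paternally and 0.02 for the maternally expressed members. With a term for Y-linked transcripts the medians in H3R17H vs WT were 0.001 for the maternally and -0.04 for the paternally expressed members. In Carm1-/- vs WT they were 0.24 and 0.004. Without replicate 1 titled Carm1-/- the paternal median of Carm1-/- vs WT was -0.50, and without replicate 2 it was -0.07.

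**Figure D4:**
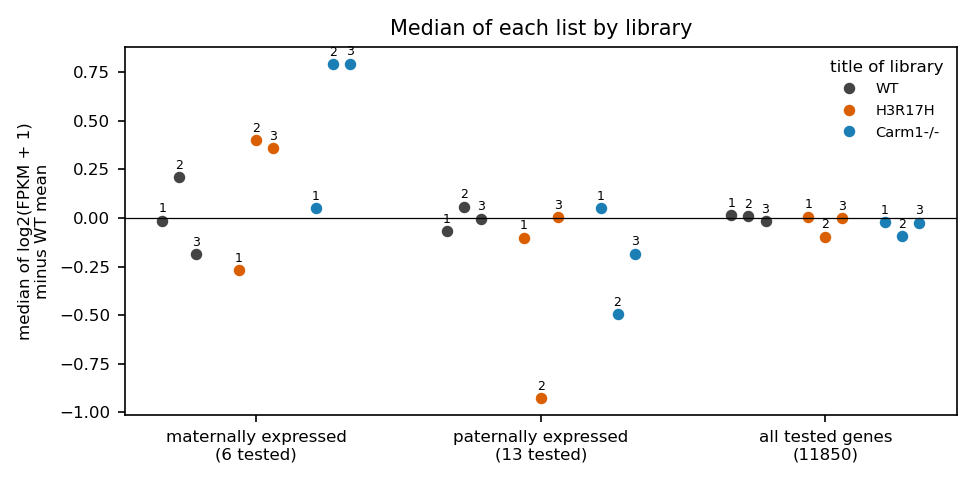
Median over the tested members of log2(FPKM + 1) minus the WT mean, for each library (points numbered by replicate, coloured by title), for 6 maternally expressed members, 13 paternally expressed members and all 11850 tested genes. Replicates 2 and 3 titled Carm1-/- lie at 0.79 for the maternally expressed members, and replicate 2 titled H3R17H lies at -0.93 for the paternally expressed ones.

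The remaining members were low or spread widely in every group. Grb10, an adaptor that restrains insulin signalling, was at 0.58 to 2.04 FPKM in WT, 1.16 to 1.84 titled H3R17H and 1.01 to 2.35 titled Carm1-/-. Gnas, the stimulatory G protein subunit, was at 3.93 to 8.31, 3.83 to 10.1 and 3.35 to 11.7 FPKM in the same order. These groups overlapped in every comparison. Zdbf2, a zinc finger gene, ranged from 0.44 to 1.43 FPKM over the 9 libraries, and Plagl1, a transcription factor, from 0.09 to 1.85 FPKM. Of the noncoding RNAs on chromosome 12, Meg3 ranged from 0.03 to 1.09 FPKM and Rian from 0 to 1.69 FPKM, with replicate 2 titled Carm1-/- at 1.69 and WT at most 0.14.

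A further list held 40 other imprinted genes, of which 25 were in the table and 13 were tested. In H3R17H vs WT 4 had higher and 9 lower values and in Carm1-/- vs WT again 4 and 9, and none passed. At an unadjusted p under 0.05, 0 were higher and 1 lower in H3R17H vs WT, against 14.2% of all genes. In Carm1-/- vs WT 1 was higher and 1 lower at that p, against 11.4%. Non-overlapping libraries were found for 1 higher and 2 lower genes in each, against 28.9% and 16.6% of all genes. These counts were near or below the background. Pon2, a paraoxonase near Peg10, was at 27.2, 56.9 and 61.6 FPKM in WT, against 8.27, 12.7 and 20.3 in the libraries titled H3R17H, a log2 difference of -1.75 (SE 0.54; limma, adjusted p = 0.245). Cd81, a tetraspanin of the Kcnq1ot1 cluster, was at 37.2, 39.6 and 75.6 FPKM in WT, against 114.1, 140.4 and 132.5 in the libraries titled Carm1-/-, a log2 difference of 1.40 (SE 0.53; adjusted p = 0.376). Its libraries titled H3R17H were at 14.5, 82.0 and 53.7 FPKM, below all of those titled Carm1-/-, and Carm1-/- vs H3R17H gave 1.65 (SE 0.53; adjusted p = 0.463). For Cd81 that value was 0.94 without replicate 1 titled H3R17H, and the difference from WT was 0.60 with a term for Y-linked transcripts. Nap1l4, a nucleosome assembly protein gene beside Phlda2, was at 84.3 to 88.0 FPKM in WT, 56.6 to 71.5 titled H3R17H and 59.3 to 66.1 titled Carm1-/-. Its log2 differences from WT were -0.37 (SE 0.19; adjusted p = 0.405) and -0.44 (SE 0.19; adjusted p = 0.426).

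Factors that keep imprints were read from a list of 20, all tested. Of these 9 had higher and 11 lower values in H3R17H vs WT, and 6 and 14 in Carm1-/- vs WT, with 0 past the threshold in limma and 6 and 3 at an unadjusted p under 0.05, where 14.2% and 11.4% of all genes were, so that 3 of 20 was near the background. Zfp57, the factor that binds methylated imprints, was at 13.7, 21.9 and 13.6 FPKM in WT, at 10.2, 8.45 and 4.13 titled H3R17H and at 11.6, 6.65 and 6.95 titled Carm1-/-. All 6 edited libraries lay below WT, by -1.06 (SE 0.37; limma, adjusted p = 0.275) and -0.90 (SE 0.37; adjusted p = 0.405) on the log2 scale. Both values rest on the same WT libraries. Dnmt3b, a DNA methyltransferase, was at 27.9 to 34.8 FPKM in WT and 13.4 to 14.97 titled H3R17H, and at 29.6, 8.86 and 9.43 titled Carm1-/-, with differences of -1.10 (SE 0.40; adjusted p = 0.282) and -1.15 (SE 0.40; adjusted p = 0.337). With a term for Y-linked transcripts the differences of Zfp57 were -0.60 and -0.44 and those of Dnmt3b -0.53 and -0.58. Dnmt3b passed in H3R17H vs WT with only the groups compared (adjusted p = 0.0401, range 0.0401 to 0.799) and in Carm1-/- vs WT without replicate 1 titled Carm1-/- (0.0125, range 0.0125 to 0.978). In these fits 2.03% and 4.63% of all tested genes passed, in the same order. Zfp42, a pluripotency gene listed for its reported action at imprinted loci, was at 45.5 to 50.2 FPKM in WT, 81.8 to 107.2 titled H3R17H and 74.3 to 135.7 titled Carm1-/-. Its differences from WT were 0.92 (SE 0.25; adjusted p = 0.224) and 1.15 (SE 0.25; adjusted p = 0.196), and the first passed with only the groups compared (0.045) and with array quality weights (0.0366), in a range of 0.0366 to 0.646. With these weights 1.62% of all tested genes passed in H3R17H vs WT.

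Of 11 Polycomb genes, the writers and erasers of H3K27me3 and their partners, 8 had higher and 3 lower values in H3R17H vs WT and 4 higher and 7 lower in Carm1-/- vs WT, and none passed in limma. Over all genes 47.7% and 46.3% had higher values in these comparisons. Of the 11, 1 was at an unadjusted p under 0.05 in each, no more than the background of 14.2% and 11.4%. The 2 named here were chosen after their values were seen. Ezh2, the methyltransferase subunit, was at 25.8 to 41.0 FPKM in WT and 17.7 to 25.4 titled H3R17H, a log2 difference of -0.62 (SE 0.25; adjusted p = 0.326). Jarid2, a partner of that complex, was at 82.3 to 100.5 FPKM in WT and at 53.0, 26.6 and 55.7 titled Carm1-/-, a difference of -1.02 (SE 0.29; adjusted p = 0.266). It was at 63.0 to 85.5 FPKM in the libraries titled H3R17H, above all of those titled Carm1-/-, by a log2 difference of -0.77 (SE 0.29; adjusted p = 0.562) for Carm1-/- vs H3R17H. That difference was -0.44 without replicate 2 titled Carm1-/-.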

How the data were processed

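The authors deposited FPKM values, 1 column for each library, per the file headers. Bowtie 0.12.2, mm10 and GRCm38 appear in the submitters' processing notes, their roles unstated. Which quantifier, annotation and strand setting were used is not given in the sources used here. Libraries were grouped by title and matched to columns by description. Depth is unknown, since the deposited values are FPKM and not read counts.

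Values were tested as log2(FPKM + 1) in 1 limma 3.58.1 fit (R 4.3.3) with an intensity trend over all 9 libraries, for genes reaching 1 FPKM in 3 or more libraries. Benjamini-Hochberg adjustment covered all 11850 tested genes, at 0.05. The script was tested on simulated data, where genes given a log2 change of 1 were recovered at 4%, 10% and 12%. The order is H3R17H vs WT, Carm1-/- vs WT and Carm1-/- vs H3R17H. For a change of 2 it was 56%, 60% and 56%, and for -2 it was 38%, 40% and 58%. A member that did not pass may therefore still have changed. A two-sided exact permutation of 3 against 3 cannot go below 0.1, so none was used. Described in full were members past the threshold, or those whose higher group averaged 5 FPKM or more and that had an unadjusted p under 0.05 or non-overlapping libraries. Genes named from the further lists are among the 3 of smallest p in their list in the comparison, but not all such genes are named. The members, lists, rules and alternatives were chosen with earlier results of these data known. Alternatives changed 1 choice at a time: pseudocount, filter, scaling, weights, groups in the fit, replicate block, a term for Y-linked transcripts and each library left out. Positions are GENCODE M21 on GRCm38, promoters RefSeq on GRCm38.p6. Joins and figures used Python 3.11.15, with matplotlib 3.10.9 for drawing and pandas 2.3.3 for tables.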

Additional observations from a re-analysis of the deposited data

How the results depend on the processing

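No imprinted gene passed the adjusted threshold in any of the 3 comparisons under any of the 18 alternatives, and each named member kept its direction except Mest in H3R17H vs WT, whose difference was 0.131 with a term for Y-linked transcripts (the cause was not tested). Over all genes, none of which passed as reported, a pseudocount of 0.1 FPKM called 1 gene in each of Carm1-/- vs WT and Carm1-/- vs H3R17H, and 5 FPKM called 1 in each of H3R17H vs WT and Carm1-/- vs H3R17H. Median-of-ratios scaling called 2 in Carm1-/- vs H3R17H. Only the groups compared called 240, and array quality weights 192, in H3R17H vs WT, and the weights called 1 in Carm1-/- vs WT. With 1 library left out the count ran from 0 to 125 in H3R17H vs WT, from 0 to 549 in Carm1-/- vs WT and from 0 to 10 in Carm1-/- vs H3R17H, each highest without replicate 1 titled Carm1-/-. Added after seeing the data, leaving out that library gave 7 members at an unadjusted p under 0.05 in Carm1-/- vs WT in place of 3, while all genes went from 11.4% to 23.8%, and 13 with non-overlapping libraries in place of 6, while all genes went from 16.6% to 42.4%. Each of these member counts includes Peg10, which passed the filter through WT alone. In the 3 comparisons a replicate block called 0 genes, and the lowest adjusted p of a member was 0.21, 0.299 and 0.496. Replicate numbers did not pair the libraries: deviations of same-numbered libraries correlated from -0.05 to 0.183 across genes. Some members could not be tested under a mean of at least 5 FPKM, which left 9. Depth is unknown, so no counting error could be given for the low members.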
